A study of Mus musculus with 2 samples.

Results

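The 10 genes described here make, load or regulate major histocompatibility complex (MHC) class I molecules. They are the light chain gene B2m, the heavy chain genes H2-D1 and H2-K1, the peptide transporter genes Tap1 and Tap2, the tapasin gene Tapbp, the inducible proteasome subunit genes Psmb8, Psmb9 and Psmb10, and the transactivator gene Nlrc5. They were taken by gene symbol from a table of 22383 genes, and all 10 were found. The samples were 2 derivatives of iHFSC2, an immortalized mouse hair follicle stem cell line. One group was infected with lentivirus that carries a hairpin against circSmad5, a circular RNA of the Smad5 gene (shcircSmad5). The other received the empty lentiviral vector and had no control hairpin. Both lines were selected with puromycin from day 4 after infection and were stable at day 15, and the labels do not say whether either is a single clone or from which mouse strain the line came.

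There was 1 library per group, so the spread between cultures is unknown and no difference below has a replicate check or a test. Differences between the separately selected lines cannot be told apart from effects of the hairpin. The library of the empty vector line (vector library below) held 39261010 gene counts and that of the shcircSmad5 line (hairpin library) 38382081. Smad5 itself had 3109 and 3413 counts, a log2 ratio of 0.10, and gene counts do not separate its circular from its linear RNA. The labelled cell type was set beside its markers. The basal keratins Krt5 and Krt14 were at 2361 to 3359 FPKM (the deposited level per length of exon and per library depth). Of 13 measured markers of hair follicle stem cells and basal keratinocytes, only Krt15, a bulge keratin, passed the size rule given below, 3.27-fold lower in the hairpin library on 253 and 79 counts. Of the 16 markers listed, 15 had a row in the table and Lgr5 had none. Cd34, a bulge stem cell marker, had 0 counts in both libraries, and Lhx2 had 4 and 5. Among the measured ones, Sox9 had 8829 and 5301 counts and Nfatc1 2300 and 2077. Of 8 leukocyte markers in the table, Itgam and Lyz2 had 0 counts in both libraries and Cd3e, Cd79a and Fcer1g had at most 12. Csf1r had 36 counts in the vector library and 8 in the hairpin library. The macrophage-associated Cd68 had 249 and 225 counts. The summed level of these 8 was 7.99 CPM (counts scaled to a common depth with TMM, which evens out composition) in the vector library and 6.20 in the hairpin library. Of 7 fibroblast markers Col1a1, Dcn and Lum had 0 counts in both libraries, and the sum was 4.24 and 1.68 CPM, nearly all from Pdgfra (161 and 62 counts). Of 6 endothelial and melanocyte markers Cdh5 had 0 counts in both, Pecam1 had 81 and 27 and Kdr 33 and 4, and the sum was 3.72 and 1.61 CPM. The size rule called Csf1r lower in the hairpin library, 1 of 2 measured leukocyte markers, and Pdgfra, the 1 measured fibroblast marker. It also called Pecam1 and Kdr lower, 2 of 3 measured endothelial and melanocyte markers. None of these markers was called higher, and of all measured genes 6.24% were called lower. The part of any leukocytes, fibroblasts, endothelial cells or melanocytes in the results was not tested. In bulk RNA, fewer cells that express a gene and less RNA per cell cannot be told apart.

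Class I molecules show short peptides from inside the cell to CD8 T cells and are also read by natural killer cells. The proteasome cuts proteins into peptides, the Tap1-Tap2 transporter pumps them into the endoplasmic reticulum, and tapasin holds an empty heavy chain with its light chain next to the transporter until a peptide fits. Interferons raise the whole pathway through factors such as IRF1 and NLRC5, and the NF-kappaB proteins act on the heavy chain and B2m promoters. The hair follicle is a known site of immune privilege, in which class I display is low.

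Promoter windows from RefSeq on GRCm38.p6, from 250 bases before to 50 after each annotated start, were found for 8 of the 10 genes and not for Tap2 and Nlrc5. Shown are the windows of B2m, H2-K1 and H2-D1, the 3 members with lower counts past the size rule described below. That of Psmb9, the member with higher counts past it, is shown beside them. The windows were picked by these calls, and Psmb9 alone stands for the higher side, on 5 and 30 counts. Whether the content of a window goes with the direction of the difference was not tested. Capitals mark matches on either strand to the interferon response element core AANNGAAA, the kappaB consensus, the cyclic AMP element half-site TGACG, the CCAAT box (ATTGG in reverse) and the gamma-activated site TTCNNNGAA. Windows are written 5′ to 3′ on the strand of the gene, B2m at chr2:122147437-122147736 (plus strand), H2-K1 at chr17:34000298-34000597 (minus strand, the upstream one of a pair of annotated starts), H2-D1 at chr17:35262844-35263143 (plus strand) and Psmb9 at chr17:34187281-34187580 (minus strand).
B2m: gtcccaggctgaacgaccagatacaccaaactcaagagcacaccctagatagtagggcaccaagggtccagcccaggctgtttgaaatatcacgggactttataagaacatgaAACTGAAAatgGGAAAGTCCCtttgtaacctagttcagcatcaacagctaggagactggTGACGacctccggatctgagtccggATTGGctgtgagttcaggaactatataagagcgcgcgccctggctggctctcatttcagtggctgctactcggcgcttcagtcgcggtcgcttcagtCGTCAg
H2-K1: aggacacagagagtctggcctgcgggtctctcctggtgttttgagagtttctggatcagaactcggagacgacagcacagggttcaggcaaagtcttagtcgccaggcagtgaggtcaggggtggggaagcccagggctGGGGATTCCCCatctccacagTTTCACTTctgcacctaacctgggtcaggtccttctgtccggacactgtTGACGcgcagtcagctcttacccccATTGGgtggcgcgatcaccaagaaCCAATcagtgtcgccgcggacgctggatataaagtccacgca
H2-D1: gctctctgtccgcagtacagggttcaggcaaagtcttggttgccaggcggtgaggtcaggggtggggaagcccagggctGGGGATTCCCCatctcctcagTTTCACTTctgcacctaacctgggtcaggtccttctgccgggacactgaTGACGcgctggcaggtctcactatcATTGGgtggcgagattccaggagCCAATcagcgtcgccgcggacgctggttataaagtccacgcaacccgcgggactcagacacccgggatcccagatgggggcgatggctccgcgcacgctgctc
Psmb9: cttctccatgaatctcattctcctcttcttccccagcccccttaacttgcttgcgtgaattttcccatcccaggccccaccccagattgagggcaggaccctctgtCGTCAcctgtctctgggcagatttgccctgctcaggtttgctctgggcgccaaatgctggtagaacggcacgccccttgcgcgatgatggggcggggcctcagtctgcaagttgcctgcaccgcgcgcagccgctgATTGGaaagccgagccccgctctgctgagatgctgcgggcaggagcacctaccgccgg

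In B2m, H2-K1 and H2-D1, the half-site TGACG stood 25 bases upstream of ATTGG, counted from first base to first base, and an interferon response element core and a kappaB match lay upstream of both. Half-site and CCAAT box at a fixed distance are the layout of the X2 and Y boxes, which class I and class II promoters are known for and to which the complex of RFX, CREB and NF-Y factors recruits NLRC5. Among 32851 promoter windows, AANNGAAA matched in 23.9%, the kappaB consensus in 8.46%, TGACG in 20.8%, ATTGG in 37.4% and TTCNNNGAA in 8.30%. The H2-K1 and H2-D1 windows shared an identical run of 47 bases, which holds the kappaB match. The kappaB matches in these 2 windows are 2 overlapping positions of the same stretch. The Psmb9 window held TGACG and ATTGG, each once, but not at that spacing, and neither an interferon core nor a kappaB match. It shares 275 of its 300 bases with the window of Tap1, which starts in the opposite direction, so both genes have these matches in common. The Tapbp window held 2 CCAAT boxes, that of Psmb8 1 gamma-activated site, and that of Psmb10 none of these letters. These matches are descriptions of letters and not of binding.

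The pair of TGACG and ATTGG at 25 bases, a pattern noted only after these windows were seen, occurred in 31 of the 32851 windows (0.0944%), which belong to 27 gene symbols. Of these, 21 genes reached 20 counts in either library (measured), 3 were lower past the size rule and 2 were higher. Of 9640 measured genes with a promoter window, 590 were lower and 584 higher. The 3 lower ones were B2m, H2-K1 and H2-D1, from which the pattern was drawn, and H2-M3 was 1 of the 2 higher ones. The median log2 ratio of the 21 genes was -0.06, against -0.05 for those 9640.

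The comparison of both libraries asks which class I genes differ between the line with the hairpin and the line with the empty vector. B2m, H2-D1 and H2-K1, the light chain and the classical heavy chains, passed the size rule on the lower side in the hairpin library, while the transporter genes and the inducible proteasome subunits Psmb8 and Psmb9, all at very low levels, had more counts there. The size rule asked for 3 things of a gene: 20 counts or more in either library, a 2-fold or larger ratio, and a 95% interval of that ratio (exact, Clopper-Pearson) without 1 in it. The labels name no molecular identifiers, so reads are not independent molecules and all intervals are for counting error alone. Of the 10 members, 8 had at least 20 counts, 3 were called lower and 1 was called higher. Among all 13596 genes with that many counts, 6.24% were called lower and 8.43% higher. The rule calls fewer genes where counts are high. Among 6883 genes that reached 1000 counts in either library, 2.85% were called lower and 1.19% higher. B2m, H2-D1, H2-K1 and Tapbp belong to these 6883 genes. H2-K1, with 1327 and 649 counts, does so only through the vector library, in which it was higher. The median log2 ratio, shcircSmad5 over empty vector, of the 8 members was -0.48 with a range of -1.45 to 2.56, and that of all measured genes was -0.02. The members went both ways, so the median describes no single one of them.

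**Figure D1:**
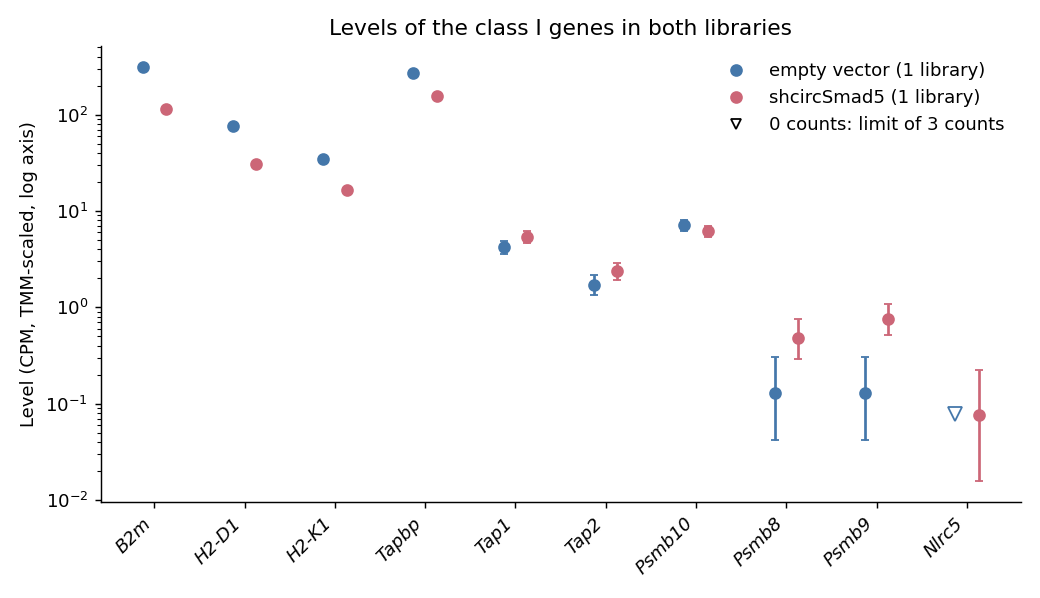
TMM-scaled level in CPM (log axis) of the 10 class I genes in the vector and hairpin libraries, 1 each, with exact Poisson 95% bars for counting error. The open triangle is the limit that 0 counts of Nlrc5 allow (0.0781 CPM). The points of B2m, H2-D1, H2-K1 and Tapbp lie lower in the hairpin library, and those of Psmb8 and Psmb9 lie higher and under 1 CPM.

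B2m (ENSMUSG00000060802, chromosome 2, 122147686 to 122153083, plus strand) encodes beta-2 microglobulin, the light chain without which class I heavy chains do not reach the cell surface. It had 11874 counts in the vector library and 4449 in the hairpin library, which is 309 and 113 CPM, or 352 and 135 FPKM. B2m was the most abundant member per length in both libraries, ranked 56th of all genes by FPKM in the first and 235th in the second. It was 2.72-fold lower (95% counting interval 2.63 to 2.82), a log2 ratio of -1.45 (-1.50 to -1.40). No stretch of 50 bases in its transcripts occurs in the annotated transcripts of another gene, so its counts do not depend on how reads were split among copies of that length. Of 13596 measured genes it had the 494th lowest ratio.

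H2-D1 (ENSMUSG00000073411, chromosome 17, 35262730 to 35267499, plus strand) and H2-K1 (ENSMUSG00000061232, chromosome 17, 33996017 to 34000347, minus strand) encode the classical heavy chains, which bind the peptide and face the T cell receptor. H2-D1 had 2940 counts in the vector library and 1207 in the hairpin library, or 29.0 and 12.2 FPKM. Its ratio was 2.49-fold lower (2.33 to 2.66), and that of H2-K1 was 2.09-fold lower (1.90 to 2.30) on 1327 and 649 counts, or 11.5 and 5.76 FPKM. The call of H2-K1 rests on the scaling: with library totals or upper quartile scaling its log2 ratio rounded to -1.0 and was just short of the 2-fold limit, against -1.06 here. Per length, H2-D1 was 2.52 times as high as H2-K1 in the vector library and 2.12 times in the hairpin library. B2m was at 7.58 and 5.77 times the summed FPKM of all heavy chain genes. These values would be too high if heavy chain reads matching several genes were discarded, and the H2 haplotype of the line was not stated.

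The heavy chain genes are near copies of each other, which makes each single value uncertain where reads match several. Of the 50-base stretches of the H2-D1 transcripts 12.8% also occur in another gene, and of those of H2-K1 9.63%, among them H2-Q1, H2-Q7, H2-Q10 and each other. A sum over the genes does not depend on how reads were split among them, but it would lack reads discarded for matching several genes, and how those were treated was not stated. The summed counts of H2-K1 and H2-D1 were 4267 and 1856, 2.35-fold lower (2.22 to 2.48). Summed over all 15 heavy chain genes of the table with names in H2-K, D, Q, T or M, the counts were 4881 and 2369, 2.10-fold lower (2.00 to 2.21). H2-K1 and H2-D1 gave 87.4% of these counts in the vector library and 78.3% in the hairpin library.

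The other 13 heavy chain genes had 614 and 513 counts in sum, a log2 ratio of -0.29 (-0.46 to -0.12). H2-T23, the Qa-1 molecule read by natural killer cells, had 401 and 304 counts and a log2 ratio of -0.43, and H2-Q4 had 123 and 84 and one of -0.58. H2-M3, which presents bacterial formyl peptides, was 3.62-fold higher on 13 and 48 counts. Of 32 nonclassical and class I-like genes listed, 17 had a row in the table, 6 had at least 20 counts, 2 were called higher and none lower. The second was Hfe, a class I-like regulator of iron uptake, with 1 and 22 counts. H2-M3 and Hfe both reached the minimum only through the hairpin library, so this balance rests on the minimum. Mr1 had 1 and 0 counts, and Fcgrt and Azgp1 had 0 in both.

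Tapbp (ENSMUSG00000024308, chromosome 17, 33915899 to 33929292, plus strand) encodes tapasin. It had 10270 counts in the vector library and 6189 in the hairpin library, or 72.1 and 44.4 FPKM, a log2 ratio of -0.76 (-0.81 to -0.71). That is 1.69-fold lower and short of the size rule. An antisense gene, Gm19412, covers 24.9% of the exonic bases of Tapbp. It had 30 and 8 counts, far fewer than Tapbp, while whether the counting used strand is not given in the sources used here. By its level per length Tapbp stood with B2m and the heavy chains, and not with the transporter genes it works beside.

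Tap1 (ENSMUSG00000037321, chromosome 17, 34187553 to 34197225, plus strand) and Tap2 (ENSMUSG00000024339, chromosome 17, 34203527 to 34216321, plus strand) encode the subunits of the peptide transporter. Tap1 had 161 counts in the vector library and 211 in the hairpin library, or 0.749 and 1.00 FPKM. Its log2 ratio was 0.36 (0.06 to 0.67). Tap2 had 66 and 93 counts, or 0.445 and 0.641 FPKM, and a log2 ratio of 0.46 (-0.01 to 0.94). Neither passed the size rule, and the interval of Tap2 includes 0. Per length, Tapbp was 96.3 times as high as Tap1 in the vector library and 44.3 times in the hairpin library. Tap1 and Psmb9 overlap on opposite strands over 3.87% of the exonic bases of Tap1 and 5.79% of those of Psmb9, and antisense genes cover 18.5% of Tap2 and 14.7% of Psmb8, so these low values are uncertain where counting ignored strand.

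**Figure D2:**
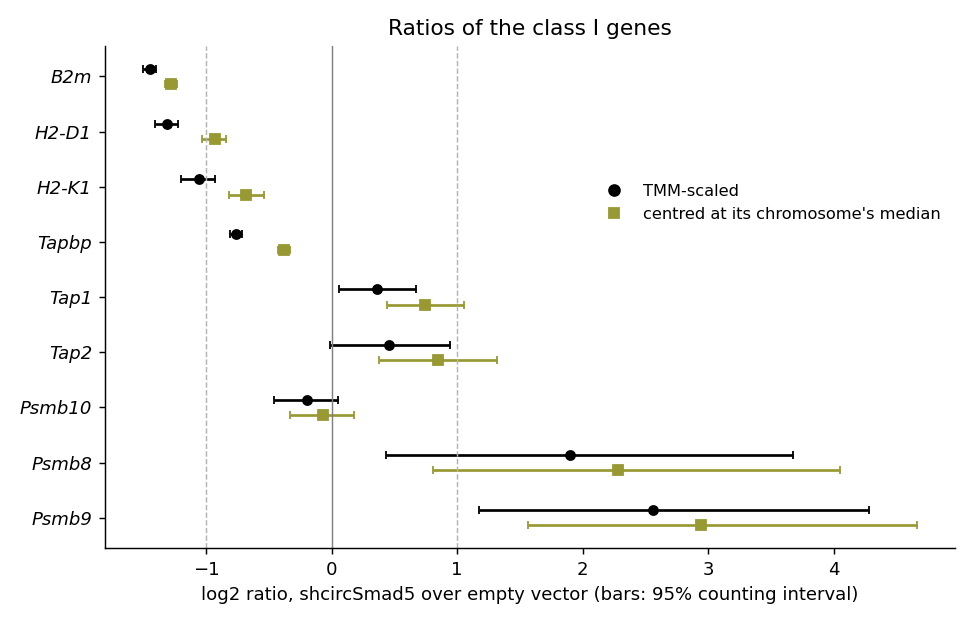
Log2 ratio, shcircSmad5 over empty vector, of the 9 class I genes for which a ratio can be given, with 95% counting intervals. Circles are TMM-scaled and squares are centred at the median of each gene's own chromosome; dashed lines mark 2-fold. B2m lies past the lower line in both, H2-D1 and H2-K1 only before centring, and Psmb9 and Psmb8, the latter under 20 counts, past the upper line in both.

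Psmb8, Psmb9 and Psmb10 encode catalytic subunits that replace Psmb5, Psmb6 and Psmb7 when the immunoproteasome is built, and so change which peptide ends are cut. Psmb9 (ENSMUSG00000096727, chromosome 17, 34181987 to 34187764, minus strand) had 5 counts in the vector library and 30 in the hairpin library. It was 5.88-fold higher (2.26 to 19.4), and it reached the minimum of 20 counts only through the library in which it was higher. Psmb8 (ENSMUSG00000024338, chromosome 17, 34197721 to 34201454, plus strand) had 5 and 19 counts, a log2 ratio of 1.90 (0.43 to 3.67), and stayed under the minimum. Both genes were near the limit of detection in the vector library, at 0.0377 FPKM for Psmb8 and 0.0348 for Psmb9. Psmb10 (ENSMUSG00000031897, chromosome 8, 105935735 to 105938444, minus strand) had 272 and 241 counts, or 4.06 and 3.68 FPKM, and a log2 ratio of -0.20 (-0.46 to 0.05). It was the most abundant of the 3 in both libraries.

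Set beside the constitutive subunit it replaces, each inducible subunit was the minor partner. Psmb8 made up 0.209% of the summed FPKM of Psmb8 and Psmb5 in the vector library (0.0676% to 0.488%) and 0.852% in the hairpin library (0.511% to 1.34%). Psmb9 made up 0.0802% of Psmb9 and Psmb6 (0.0260% to 0.187%) and 0.427% (0.288% to 0.610%). These intervals are exact and for counting error, and the inducible genes had at most 30 counts. Psmb10 made up 13.4% of Psmb10 and Psmb7 in both (11.9% to 14.8% and 11.9% to 15.0%). Over all 6 subunits the inducible share was 4.50% and 4.27%, nearly all of it from Psmb10; by counts it was 3.69% and 3.83%, so its order between the libraries turns with the unit. The constitutive genes had log2 ratios of -0.14 for Psmb5, 0.14 for Psmb6 and -0.21 for Psmb7.

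**Figure D3:**
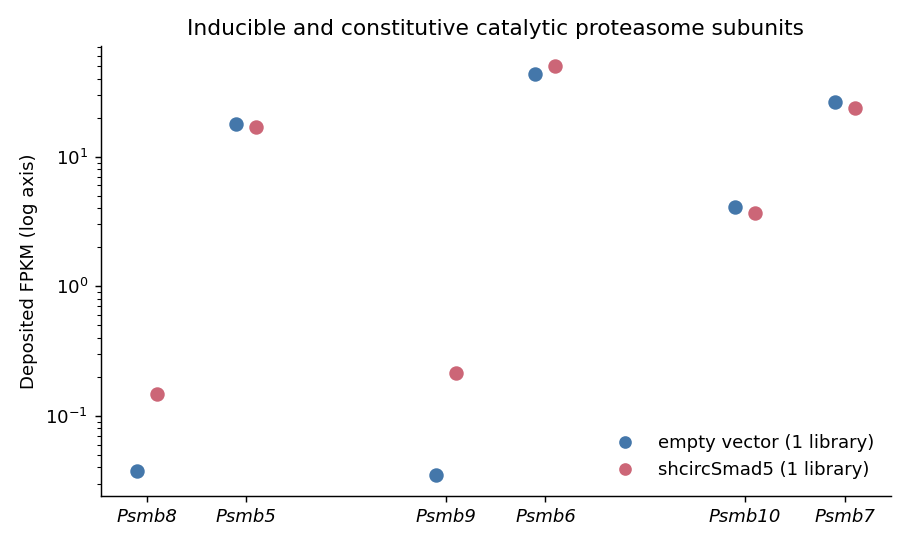
Deposited FPKM (log axis) of each inducible catalytic proteasome subunit and the constitutive subunit it replaces, in the vector and hairpin libraries, 1 each. Psmb8 and Psmb9 lie far below Psmb5 and Psmb6 in both libraries, and Psmb10 lies less far below Psmb7, at 4.06 and 3.68 FPKM.

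Nlrc5 (ENSMUSG00000074151, chromosome 8, 94434356 to 94527272, plus strand) encodes the transactivator of class I genes. It had 0 counts in the vector library, which allows a level of up to 0.0781 CPM, and 3 in the hairpin library. No ratio is given, since both values lie at or under the floor of 3 counts. No difference in Nlrc5 was detected, and these counts are too few to show a small one.

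Of the 10 members 7 lie on chromosome 17, in a segment of 1.35 Mb that starts with Tapbp and ends with H2-D1. Most genes of this chromosome had a ratio under 0, so position is given beside each value. Of 637 other measured genes on chromosome 17, 79.6% had a log2 ratio under 0, with a median of -0.38, and 9.73% were called lower. The medians of its 10 Mb bins with at least 20 measured genes ran from -0.48 to -0.22, and that of 30 to 40 Mb, which holds the segment, was -0.37. The 52 other measured genes of the segment had a median of -0.46, and 4 were called lower and 2 higher. H2-D1 was lower than all but 3 of these, and H2-K1 than all but 4.

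Psmb9, Tap1, Psmb8 and Tap2 lie side by side within 34.3 kb, and all 4 had a log2 ratio above 0 on a chromosome where most genes were below 0. They had at most 211 counts, while the chromosome median pools genes of all count levels. Of the other measured genes of the segment with so few counts, more lay above 0 than below. H2-K1 lies 182 kb from Psmb9 and Tapbp a further 66.7 kb away, with ratios below 0. Brd2, which lies between H2-K1 and Psmb9 and was named after its value was seen, had 11788 and 8734 counts and a log2 ratio of -0.46. The 13 measured neighbours within 250 kb of Psmb9 had a median of -0.29. With the median of chromosome 17 set to 0, the log2 ratios were -0.93 (-1.03 to -0.84) for H2-D1, -0.68 (-0.82 to -0.54) for H2-K1, -0.38 (-0.43 to -0.33) for Tapbp, 0.74 (0.44 to 1.05) for Tap1, 0.85 (0.38 to 1.32) for Tap2, 2.28 (0.81 to 4.05) for Psmb8 and 2.94 (1.56 to 4.66) for Psmb9. H2-D1 and H2-K1 then no longer passed the size rule, being 1.91-fold and 1.60-fold lower, and the interval of each of these 7 genes excluded 0, that of Tap2 only after centring. The part of the chromosome-wide shift in the member values was not tested.

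**Figure D4:**
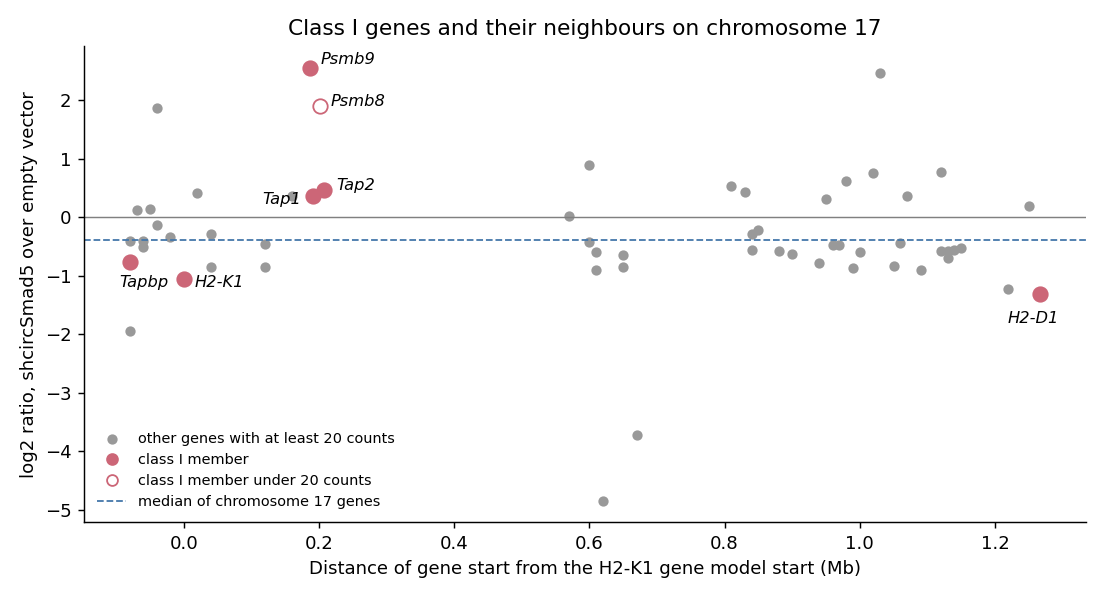
Log2 ratio, shcircSmad5 over empty vector, of the chromosome 17 class I genes (red; open, under 20 counts) and the 52 other measured genes between Tapbp and H2-D1 (grey), against distance of the gene model start from that of H2-K1 in Mb. The dashed line is the median of other chromosome 17 genes (-0.38). Psmb9, Psmb8, Tap1 and Tap2 lie above 0 and Tapbp, H2-K1 and H2-D1 lie below the dashed line.

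B2m lies on chromosome 2, whose 1047 other measured genes had a median of -0.16. Centred on its chromosome B2m was 2.43-fold lower, with a log2 ratio of -1.28 (-1.33 to -1.23). Of its 10 measured neighbours within 250 kb, 8 had a log2 ratio under 0 and 2 were called lower, with a median of -0.42, and 1 had a lower ratio than B2m. Psmb10, on chromosome 8 with a median of -0.13, was at -0.07 (-0.33 to 0.18) when centred.

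None of the other genes of the loading and peptide supply machinery passed the size rule, which few genes with high counts do (2.85% lower and 1.19% higher, above). All 16 genes of peptide loading and endoplasmic reticulum trimming were measured, with a median of 0.04 and a range of -0.47 to 0.36. The lectin chaperones and the thiol oxidoreductase of the loading complex are encoded by Canx, Calr and Pdia3. Their log2 ratios were 0.03 (32642 and 34061 counts), -0.35 (30135 and 24200) and -0.16 (36222 and 33063). Tapbpl, a tapasin relative that edits peptides, had 572 and 691 counts and a log2 ratio of 0.24. The trimming peptidase gene Erap1 had 2675 and 1969 counts and one of -0.47. All 16 thus lay above the ratio of Tapbp, at -0.76.

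Among proteasome genes outside the inducible ones, none of 3 constitutive catalytic subunits, 11 other core subunits, 9 activators and assembly factors or 21 subunits of the 19S regulator passed the size rule, and the medians were -0.14, -0.11, 0.08 and -0.15. Psme1 and Psme2, the interferon-inducible activator genes, had 1359 and 1471 counts and 1125 and 1345 counts, with log2 ratios of 0.08 and 0.23. Among those with the most counts, the core subunit gene Psma7 had a log2 ratio of -0.37, the activator gene Psme3 one of 0.09 and the 19S gene Psmd2 one of -0.21. Of the 21 genes of the 19S regulator 19 had a log2 ratio under 0, with a range of -0.76 to 0.11. The lowest was Psmd5, an assembly chaperone of the 19S base, at -0.76 on 4154 and 2502 counts, as low as Tapbp. Of 12 cytosolic peptidase genes none passed (median -0.16), and of 18 measured genes of class I turnover and trafficking none passed (median -0.03). The peptidase genes with the most counts, Prep, Tpp2 and Xpnpep1, had log2 ratios of -0.19, -0.22 and 0.13. The peptidase list ranged from -0.92 to 0.54, and its lowest gene, Rnpep, an aminopeptidase, had 2095 and 1132 counts and was 1.89-fold lower. In the turnover list Hdlbp had one of -0.11, and Vcp, the segregase of endoplasmic reticulum-associated degradation, one of -0.61 on 21122 and 14155 counts. Susd6, which takes part in the removal of class I from the surface, had 5105 and 7551 counts and a log2 ratio of 0.53.

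The 25 measured regulators of class I transcription had a median log2 ratio of -0.11. Irf1 had 2293 and 2168 counts and a log2 ratio of -0.11. Rela and Nfkb1, subunits of NF-kappaB, had ratios of -0.29 and -0.11. Among the factors of the X and Y boxes, Rfx5 had 798 and 1467 counts (0.85), Rfxap 171 and 107 (-0.71), Rfxank 282 and 304 (0.08), Creb1 4655 and 4305 (-0.14) and Nfya 3923 and 3807 (-0.07), the value in brackets being the log2 ratio. Rfx5 was thus 1.80-fold higher and short of the size rule. None of 14 measured interferon receptor and signalling genes passed, with a median of -0.03. Jak1 had a log2 ratio of -0.15, Ptpn11 one of -0.31, Ifnar1 one of -0.33 and Ifngr1 one of 0.01.

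Interferon-stimulated genes outside the class I pathway mostly had ratios above 0, as 20 of 23 did, against 6623 of all 13596 measured genes. Of 38 listed, 33 had a row in the table and 23 had at least 20 counts. Of these 23, 7 were called higher (against 8.43% of all measured genes) and none lower, with a median of 0.38. All 7 had at most 394 counts. Only 1.19% of genes that reached 1000 counts were called higher, so the share among genes under 1000 counts is above 8.43%. One of the 7, Ifit1, reached the minimum only through the hairpin library, with 4 and 117 counts. Ifih1, a sensor of double-stranded RNA, had 143 and 394 counts, and Xaf1 had 119 and 292. The guanylate-binding protein genes Gbp7 and Gbp3 had 136 and 314 counts and 122 and 260, which is 2.26-fold and 2.09-fold higher. Psmb9 was on the side of these genes and B2m, H2-D1 and H2-K1, which interferon also induces, were on the other. The 3 genes of the list with the most counts did not pass. Ddx58 had a log2 ratio of 0.53 on 2412 and 3548 counts, Trim25 one of 0.25 on 2861 and 3480, and Oas3 one of -0.49 on 3119 and 2269.

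**Figure D5:**
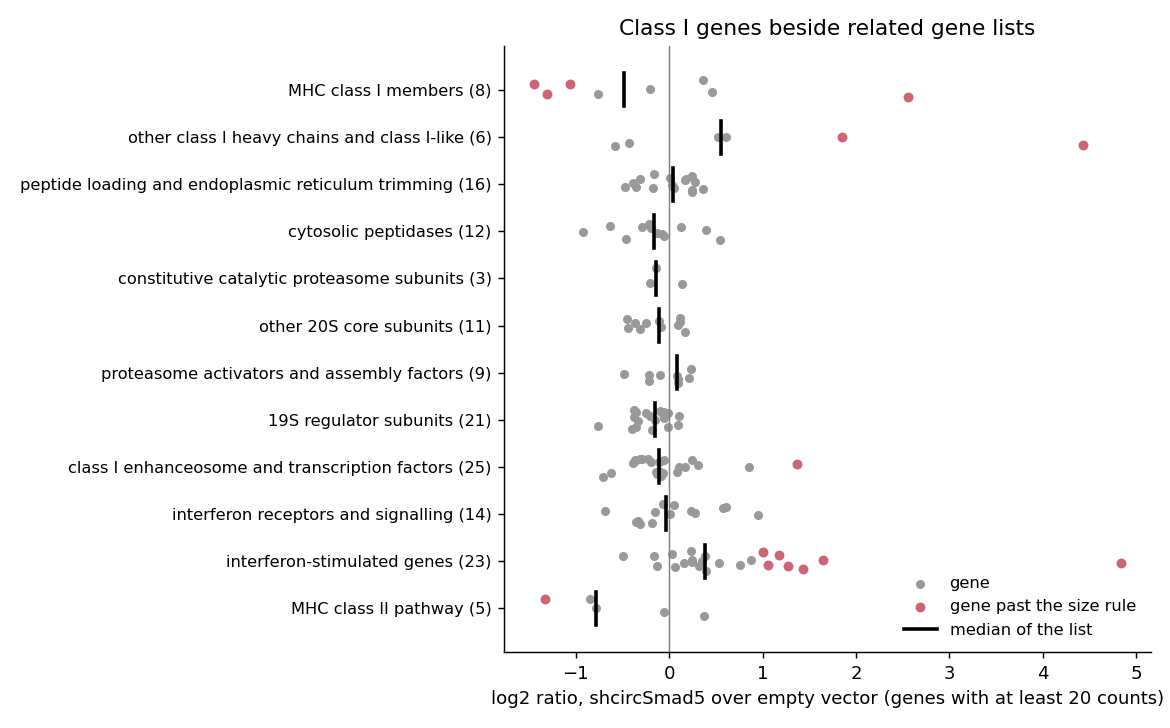
Log2 ratio, shcircSmad5 over empty vector, of genes with at least 20 counts in the class I list and 11 related lists (number of genes in brackets); red points passed the size rule and black bars are list medians. The loading, peptidase and proteasome lists have no red point, the class I list has 3 on the lower side and 1 on the higher, and the interferon-stimulated list has 7 on the higher side.

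Class II molecules present peptides from outside the cell. Their invariant chain gene Cd74 and transactivator gene Ciita each had 0 and 1 counts, and H2-Eb1 had 1 and 7. Ifi30, a lysosomal thiol reductase that also acts outside class II presentation, was 2.52-fold lower on 2039 and 826 counts, the only one of 5 measured genes past the rule. Of these 5 class II pathway genes, 4 had a log2 ratio under 0, and their median was -0.78. Of 13 measured ligands of natural killer and T cell receptors, Lgals9 was 2.85-fold lower on 662 and 237 counts and none was called higher. Cd274, the checkpoint ligand PD-L1, had 301 and 572 counts and a log2 ratio of 0.90, and Raet1e, a stress ligand of the NKG2D receptor, had 200 and 400 and one of 0.97. H60c and Ulbp1, other ligands of NKG2D, both had a log2 ratio of -0.46.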

How the data were processed

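Total RNA of 2 libraries, 1 per group, was sequenced. Per the labels' protocols, ribosomal RNA was removed and a kit that keeps strand was used on 3 µg of RNA. HISAT2, HTSeq 0.13.5, GRCm38 and GRCh38 are named in the submitters' processing notes without their roles; their settings, the annotation and the use of strand in counting were not stated. The authors deposited whole-number read counts and FPKM per gene. In both libraries the deposited FPKM followed from count, column total and a whole-number length for 100.0% of genes above 0 (within 0.001 bases), and that length equalled the GENCODE M21 exon length for at least 98.2%. No value column was left unmatched.

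Counts were scaled by TMM (edgeR 4.0.16, R 4.3.3). Coordinates came from GENCODE M21 (GRCm38) for 22298 gene IDs, and 85 were not found. No test was possible without replicates. For a 0, a floor of 3 counts was used, and no ratio is given where both counts are at or under it. The size rule and its intervals were tried on simulated counts with Poisson counting error alone and known scaling. That trial says nothing about the spread between cultures. The members, the 17 other gene lists and the rule for naming genes were chosen with earlier results of these data known. Named are all members, and from each list, by counts, the top 4 past the size rule at most, or where there were none the top 3; some of these are left to the list's range, and other list genes were named for their role, after their values were seen. Some genes of these lists are not reported here by name. Nrdc was read as Nrd1, its RefSeq synonym. Alternatives were other scalings (library totals, upper quartile, DESeq2 1.42.0 size factors), chromosome centring, count minimums, fold limits, protein-coding genes alone, and log2(FPKM + 0.1) or log2(FPKM + 1).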

Additional observations from a re-analysis of the deposited data

How the results depend on the processing

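Of 54 values of single members under other scalings and pseudocounts, none changed sign; 37 stayed within the counting interval and 17 left it. B2m was called lower under every setting with a 2-fold or 1.5-fold limit, and H2-D1 under these except chromosome centring. H2-K1 was lost with library totals, upper quartile scaling and chromosome centring. With each chromosome centred, 1 member was called lower, the median of the members was -0.23 and the H2-K1 and H2-D1 sum was at -0.85. That sum was at -1.07 over all 15 heavy chain genes. With no count minimum 2 members were called higher (Psmb8 and Psmb9) and the members' median was -0.20; with a minimum of 100 counts it was 0 members and -0.91. The mean of the members was -0.18. At a 3-fold limit 0 members were called lower. For all genes, the calls higher and lower were 568 higher with protein-coding genes alone (692 lower), 439 and 463 with a minimum of 100 counts, 1892 and 1753 at 1.5-fold, and 591 and 422 at 3-fold. The inducible share of catalytic proteasome subunits was 3.69% by counts in the vector library and 3.83% in the hairpin library, against 4.50% and 4.27% by FPKM, so its order between the libraries turned with the unit. The count minimum and fold limit act by construction; for the other changes the cause was not tested. No paired analysis was possible because each group has 1 library. Depth limits Nlrc5, Psmb8 and Psmb9 most, with at most 30 counts.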
